A study of Homo sapiens with 4 samples.

Results

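Primary granule proteins of immature myeloid cells are the products of a small set of genes, and 10 of these were chosen by name: CTSG, ELANE, PRTN3, AZU1, MPO, LYZ, SRGN, CST7, RNASE2 and RNASE3. A gene was taken from the deposited values when a probe set (a group of short oligonucleotides that reads 1 transcript) was annotated to that gene and to no other. By this rule 9 of the 10 genes were found among 19775 genes, with 13 of the 54675 probe sets on the array. RNASE3 matched no such probe set and is not analysed here. The rule itself uses no measured value, and the list of genes was drawn up with earlier results of these data known.

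The data consist of 4 DNA microarrays (GeneChip Human Genome U133 Plus 2.0), 1 for each of Siglec-14,NTHi[+], Siglec-14,NTHi[-], Siglec-5,NTHi[+] and Siglec-5,NTHi[-]. All groups are THP-1, a human monoblastoid leukemia cell line, in sublines that express either Siglec-14 or Siglec-5, which the study used as models of monocytes with and without an intact SIGLEC14 gene. The cells were kept for 6 h in serum-free medium for macrophages, either with nontypeable Haemophilus influenzae (NTHi, strain 2019, killed by heat) at 100 bacteria per cell or without bacteria. Each line is a leukemia subline and not blood monocytes, and the sources do not say whether a subline is 1 clone. There were no replicates, so each ratio compares a pair of arrays and has no replicate error.

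Primary (azurophil) granules are made during a short window of myeloid development, at the promyelocyte stage, and the cells later keep the stored proteins while their mRNAs decline. The granules hold serine proteases that degrade bacteria and matrix, an enzyme that makes hypochlorous acid, lysozyme and cationic proteins, packed on the proteoglycan serglycin. Monoblastic leukemia lines retain part of this program, since they are arrested at an immature stage.

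Signals are intensities on a linear scale. The sum of all signals lay between 12735500 and 14047100 on the 4 arrays and the median between 15.1 and 16.5. A floor was set at the median of all signals, 16.02, lower signals were raised to it for ratios, and a gene was counted as different at 2-fold or more. Each gene is represented by its probe set of highest mean signal. Of the monocytic line markers, 8 of 10 had a probe set, and 6 of these reached the floor on all 4 arrays, while CD14 and FCGR1A, defining markers of mature monocytes, were below it on all 4. The single SIGLEC5 probe set read 19.5 and 21.3 in the Siglec-14 line with and without NTHi and 21.6 and 4.13 in the Siglec-5 line, close to or below the floor, and SIGLEC14 matched no probe set, so the line labels could not be checked from these arrays.

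All 9 granule genes reached the floor on at least 1 array, and 8 of them did so on all 4 arrays. CST7, the gene of the cysteine protease inhibitor cystatin F, was the exception. Their highest signal over their lowest, across the 4 arrays, was 3.25-fold for CTSG and 2.09-fold for MPO. It was 1.39-fold for PRTN3, 1.32-fold for AZU1, 1.16-fold for SRGN, 1.15-fold for RNASE2, 1.14-fold for ELANE and 1.13-fold for LYZ. CST7 spanned 1.73-fold with its low signal raised to the floor and 2.51-fold as deposited. In 7 of the 9 genes (CTSG, MPO, PRTN3, AZU1, ELANE, LYZ and RNASE2) both Siglec-14 arrays were lower than both Siglec-5 arrays, which held for 27.2 percent of 13935 genes. In 1 of 9 (CST7) both were higher, which held for 21.1 percent, and SRGN overlapped. These counts of non-overlap were not planned and were added after the data were seen. The count stayed 7 with median scaling, where 35.9 percent of all genes were lower in this way. It became 4 with trimmed mean scaling (CTSG, MPO, PRTN3 and RNASE2), against 24.9 percent, and 5 with quantile normalization, against 27.4 percent. The genes without overlap differed in size, as the plot of member signals shows, from over 2-fold for CTSG to a few percent for ELANE, LYZ and RNASE2 in the comparison with NTHi.

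**Figure D1:**
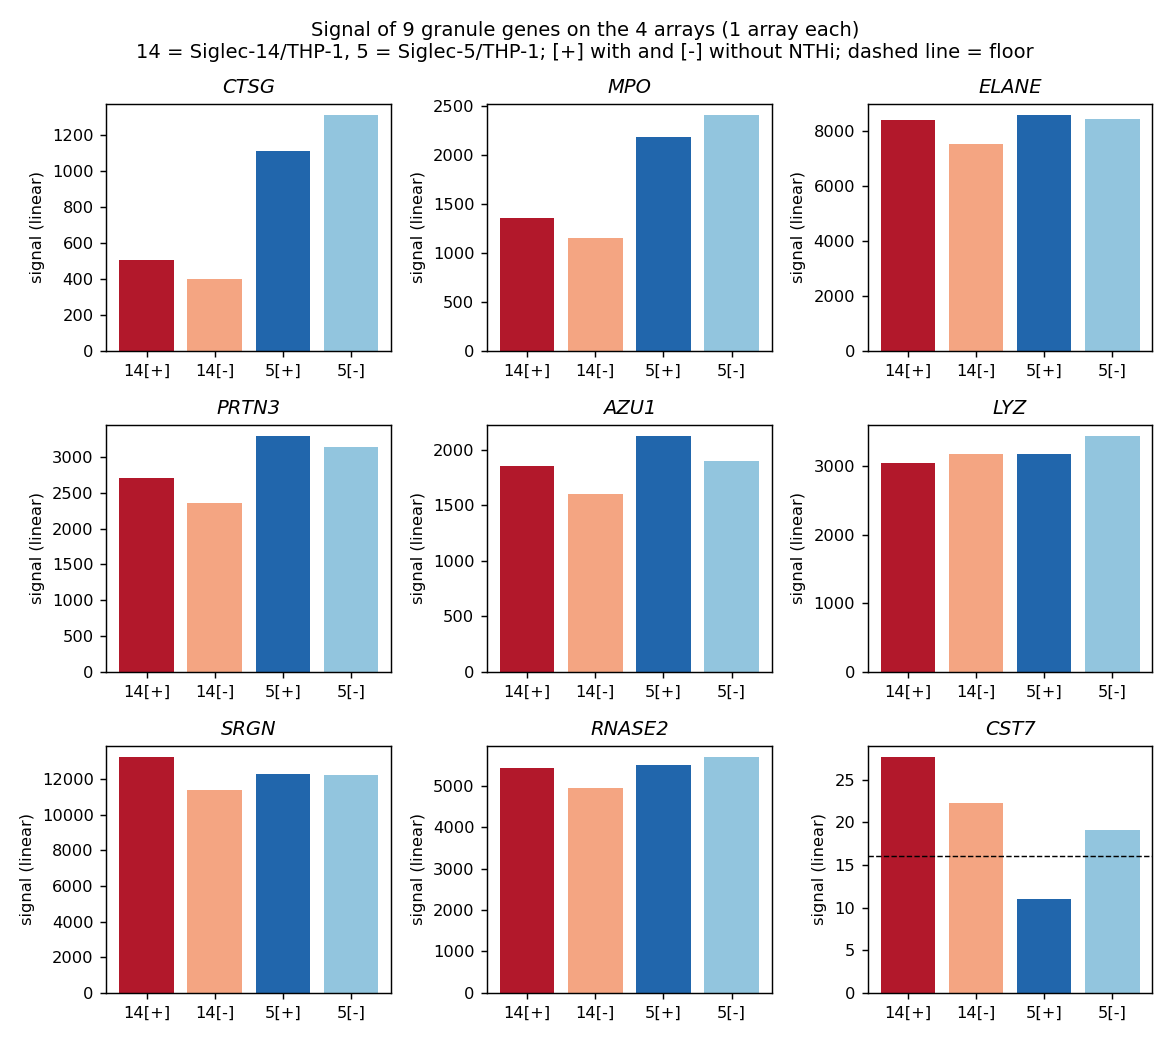
Signal intensity of the 9 granule genes on the 4 arrays, 1 array per group with no replicates. Both Siglec-14 arrays lie below both Siglec-5 arrays in 7 of the 9 genes, with the widest gap for CTSG and then MPO, and CST7 lies near the floor of 16.02.

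CTSG encodes cathepsin G, a chymotrypsin-like serine protease of the granule. Its signal was 508 in Siglec-14,NTHi[+], 403 in Siglec-14,NTHi[-], 1112 in Siglec-5,NTHi[+] and 1311 in Siglec-5,NTHi[-]. Both Siglec-14 arrays were below both Siglec-5 arrays, with no overlap. In cells without NTHi, CTSG was 3.25-fold lower in the Siglec-14 line than in the Siglec-5 line (log2 ratio -1.70). With NTHi it was 2.19-fold lower (log2 ratio -1.13). Among 8300 genes with a signal on at least 1 array at or above the 75th percentile of all signals (105), the log2 ratios between the lines had an SD of 0.49 in each condition. Only 2 of these genes had a lower ratio than CTSG without NTHi, and 19 had a lower one with NTHi.

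MPO encodes myeloperoxidase, the heme enzyme that makes hypochlorous acid from hydrogen peroxide and chloride. The representative probe set read 1365 in Siglec-14,NTHi[+], 1152 in Siglec-14,NTHi[-], 2186 in Siglec-5,NTHi[+] and 2408 in Siglec-5,NTHi[-]. The lines did not overlap. The signal was 2.09-fold lower in the Siglec-14 line without NTHi (log2 ratio -1.06) and 1.60-fold lower with NTHi (log2 ratio -0.68), so MPO passed 2-fold in only the first of these comparisons. Trimmed mean scaling (log2 ratio -0.92) and quantile normalization (-0.88) ended that call. A further MPO probe set read 416 and 429 in the Siglec-14 line with and without NTHi, against 584 and 749 in the Siglec-5 line. It lay lower in the Siglec-14 line as well, by 1.41-fold with NTHi and 1.75-fold without, below the 2-fold limit. Of the 8300 genes, 48 had a lower ratio than MPO without NTHi and 162 with NTHi. These arrays read RNA from whole cultures, in which fewer cells that make a transcript and less of it per cell cannot be told apart.

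In the comparison of the lines without NTHi, 2 of the 9 granule genes (CTSG and MPO) were at least 2-fold lower in the Siglec-14 line, against 1.43 percent of 13284 genes, and 0 were higher, against 3.19 percent. With NTHi, 1 of 9 (CTSG) was at least 2-fold lower, against 0.962 percent of 13099 genes, and 0 were higher, against 4.36 percent. The share lower is above the background in both comparisons, and it rests on CTSG and MPO without NTHi and on CTSG alone with NTHi. The list was drawn up with earlier results of these data known, so this share is a description and not a test of the set. Without NTHi the count was 1 (CTSG) after trimmed mean scaling or quantile normalization, and 1 with the median or the dimmest probe set of each gene. The median log2 ratio of the 9 genes was -0.20 without NTHi, where all genes had -0.12, and -0.07 with NTHi, where all genes had 0.06. The 8300 genes with a signal of at least 105 on at least 1 array include all the granule genes but CST7. Their median was -0.16 without NTHi and 0.04 with NTHi.

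**Figure D2:**
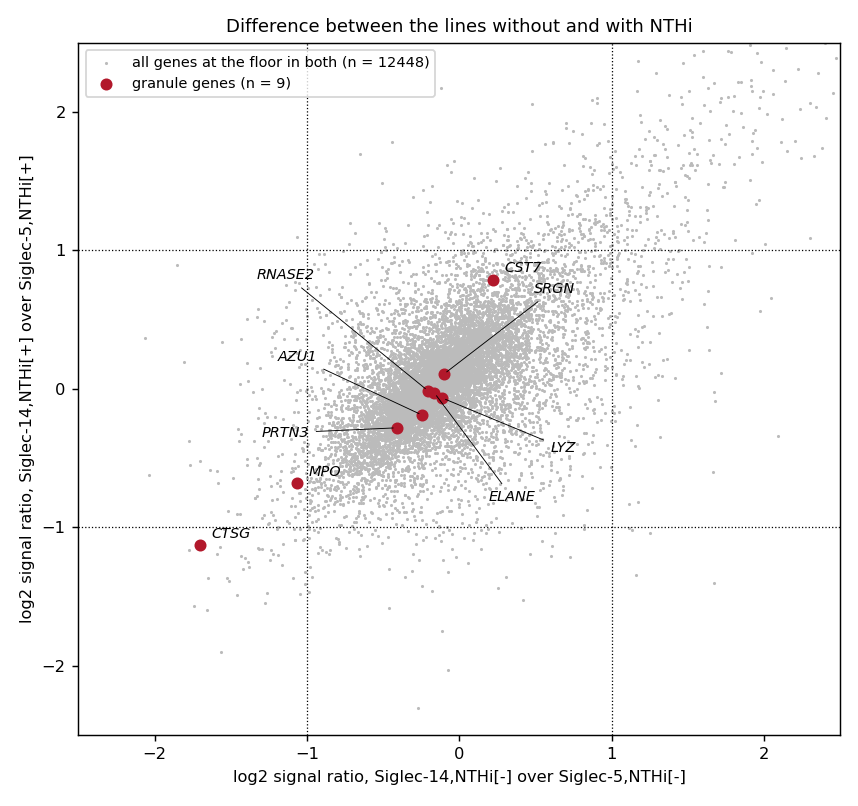
Log2 ratio of the Siglec-14 line over the Siglec-5 line without NTHi and with NTHi, for the granule genes and for 12448 genes as background (69 beyond the axes). CTSG and MPO stand low in both conditions and the other granule genes lie within the cloud.

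The other members of the granule serine protease family differed by less than 2-fold between the lines. AZU1, PRTN3 and ELANE follow each other on chromosome 19 in the RefSeq annotation of GRCh38.p14, and CTSG lies on chromosome 14 between the protease genes CMA1 and GZMH. ELANE, neutrophil elastase, read 8381 in Siglec-14,NTHi[+], 7512 in Siglec-14,NTHi[-], 8554 in Siglec-5,NTHi[+] and 8420 in Siglec-5,NTHi[-]. The Siglec-14 over Siglec-5 ratio of ELANE was 0.980 with NTHi and 0.892 without. PRTN3, proteinase 3, the autoantigen of granulomatosis with polyangiitis, read 2702 and 2358 in the Siglec-14 line with and without NTHi, against 3286 and 3135 in the Siglec-5 line. Its signal was lower on both Siglec-14 arrays, 1.22-fold with NTHi and 1.33-fold without, which is under 2-fold. AZU1, azurocidin, a protease homolog without catalytic activity that attracts monocytes and kills bacteria, read 1856 and 1604 in the Siglec-14 line with and without NTHi, against 2119 and 1899 in the Siglec-5 line, with ratios of 0.876 and 0.845.

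The promoters of CTSG, PRTN3 and AZU1 are shown because CTSG passed 2-fold between the lines and these relatives of the same protease family did not. RefSeq promoter sequence was matched for 5 of the 10 genes (CTSG, PRTN3, AZU1, RNASE2 and RNASE3), and the 250 bases before each RefSeq start, build GRCh38.p14, were read 5′ to 3′ on the gene's strand. Capitals mark matches, on both strands, to motifs of factors known to act on granule genes, PU.1 (GAGGAA), C/EBP (TTNNGNAA), MYB (AACNGNC) and RUNX (TGTGGT). The intervals are chr14:24576251-24576500 (minus strand) for CTSG, chr19:840749-840998 (plus strand) for PRTN3 and chr19:827587-827836 (plus strand) for AZU1.
CTSG: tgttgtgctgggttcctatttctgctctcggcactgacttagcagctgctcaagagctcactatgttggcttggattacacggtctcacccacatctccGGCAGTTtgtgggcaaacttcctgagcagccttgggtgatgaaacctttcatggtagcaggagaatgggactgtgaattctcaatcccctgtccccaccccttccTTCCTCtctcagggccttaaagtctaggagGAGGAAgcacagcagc
PRTN3: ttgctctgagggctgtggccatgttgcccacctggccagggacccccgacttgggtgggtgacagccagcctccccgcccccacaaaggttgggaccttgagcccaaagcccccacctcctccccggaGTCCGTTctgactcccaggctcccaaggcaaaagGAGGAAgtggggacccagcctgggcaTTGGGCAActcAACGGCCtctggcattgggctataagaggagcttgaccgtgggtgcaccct
AZU1: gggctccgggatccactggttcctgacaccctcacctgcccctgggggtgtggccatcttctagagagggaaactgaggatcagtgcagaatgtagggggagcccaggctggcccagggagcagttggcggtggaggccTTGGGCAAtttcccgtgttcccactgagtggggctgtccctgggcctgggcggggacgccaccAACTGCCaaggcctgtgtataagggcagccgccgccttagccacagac

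The CTSG promoter held PU.1 letters that begin 46 bases (on the other strand) and 16 bases before the start, and MYB letters 151 bases before it on the other strand. The PRTN3 promoter held PU.1 letters at 88 bases, C/EBP letters at 62 bases and MYB letters at 51 bases and, on the other strand, at 122 bases. The AZU1 promoter held C/EBP letters at 111 bases and MYB letters at 48 bases, with no overlap between matches in any of the 3 promoters. Among 35116 promoters of this length, 23.6 percent held the PU.1 letters, 33.2 percent the C/EBP letters, 26.9 percent the MYB letters and 11 percent the RUNX letters. Matches describe the letters only.

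LYZ encodes lysozyme, which cleaves bacterial cell wall peptidoglycan and is also made by mature monocytes. It read 3036 in Siglec-14,NTHi[+], 3172 in Siglec-14,NTHi[-], 3180 in Siglec-5,NTHi[+] and 3430 in Siglec-5,NTHi[-], with ratios between the lines of 0.955 with NTHi and 0.925 without. A further LYZ probe set read 922 and 851 in the Siglec-14 line with and without NTHi, against 954 and 1107 in the Siglec-5 line. LYZ spanned less than the other granule genes on its representative probe set.

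SRGN encodes serglycin, the proteoglycan core that holds granule proteins in store. Its brightest probe set read 13224 and 11399 in the Siglec-14 line with and without NTHi, against 12288 and 12235 in the Siglec-5 line. The order of the lines turned with NTHi, with a ratio of 1.08 with it and 0.932 without it. A further bright SRGN probe set read 12093 and 11457 in the Siglec-14 line with and without NTHi, against 11517 and 11272 in the Siglec-5 line. A dim SRGN probe set read 38.1 and 55.5 in the Siglec-14 line with and without NTHi, against 49.6 and 87.0 in the Siglec-5 line, and ran lower with NTHi in both lines, unlike the bright probe sets.

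RNASE2 encodes the eosinophil-derived neurotoxin, an antiviral ribonuclease that monocytic cells also make, and its gene lies beside RNASE3 on chromosome 14. It read 5431 and 4935 in the Siglec-14 line with and without NTHi, against 5491 and 5688 in the Siglec-5 line, with ratios of 0.989 and 0.868. CST7, whose product inhibits the cathepsin C that activates granule proteases, read 27.7 and 22.3 in the Siglec-14 line with and without NTHi, against 11.0 and 19.1 in the Siglec-5 line. With the signal of 11.0 raised to the floor, CST7 was at least 1.73-fold higher in the Siglec-14 line with NTHi. It reached 2-fold there only where no floor or a lower floor was used (2.51-fold), since the signal of Siglec-5,NTHi[+] was below the floor.

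NTHi moved no granule gene by 2-fold in either line. In the Siglec-14 line, 0 of 9 were at least 2-fold higher, against 1.17 percent of 13210 genes, and 0 were at least 2-fold lower, against 0.621 percent. In the Siglec-5 line, 0 of 9 were higher, against 0.876 percent of 13014 genes, and 0 were lower, against 0.884 percent. At these shares, a count of 0 of 9 is not set apart from the background. With signals raised to the floor, the NTHi ratio farthest from 1 was 1.26 for CTSG in the Siglec-14 line. As deposited, CST7 was 1.73-fold lower with NTHi in the Siglec-5 line, where its signal with NTHi was below the floor.

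In the Siglec-14 line the NTHi[+] over NTHi[-] ratios of the other genes were 1.24 for CST7, 1.18 for MPO, 1.16 for AZU1 and SRGN, 1.15 for PRTN3, 1.12 for ELANE, 1.10 for RNASE2 and 0.957 for LYZ. The log2 ratios of 8 of the 9 genes were above 0, with a median of 0.21, where all genes had 0.08. In the Siglec-5 line they were 1.12 for AZU1, 1.05 for PRTN3, 1.02 for ELANE and 1.004 for SRGN, and below 1 for RNASE2 (0.965), LYZ (0.927), MPO (0.908), CTSG (0.848) and CST7 (0.840, floored). Here 4 of 9 were above 0, with a median of -0.05, where all genes had -0.11. Among the genes with a signal of at least 105, the log2 NTHi ratios had a median of 0.09 and an SD of 0.24 in the Siglec-14 line, and a median of -0.11 and an SD of 0.27 in the Siglec-5 line. In the Siglec-14 line CTSG (log2 0.33) lay just over 1 SD above that median, with 757 of 8300 genes higher. A further MPO probe set had an NTHi ratio of 0.969 in the Siglec-14 line, below 1, and 0.780 in the Siglec-5 line. Quantile normalization turned the NTHi direction of ELANE, SRGN and RNASE2 in the Siglec-14 line and of SRGN in the Siglec-5 line, and median and trimmed mean scaling turned RNASE2 in the Siglec-5 line.

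**Figure D3:**
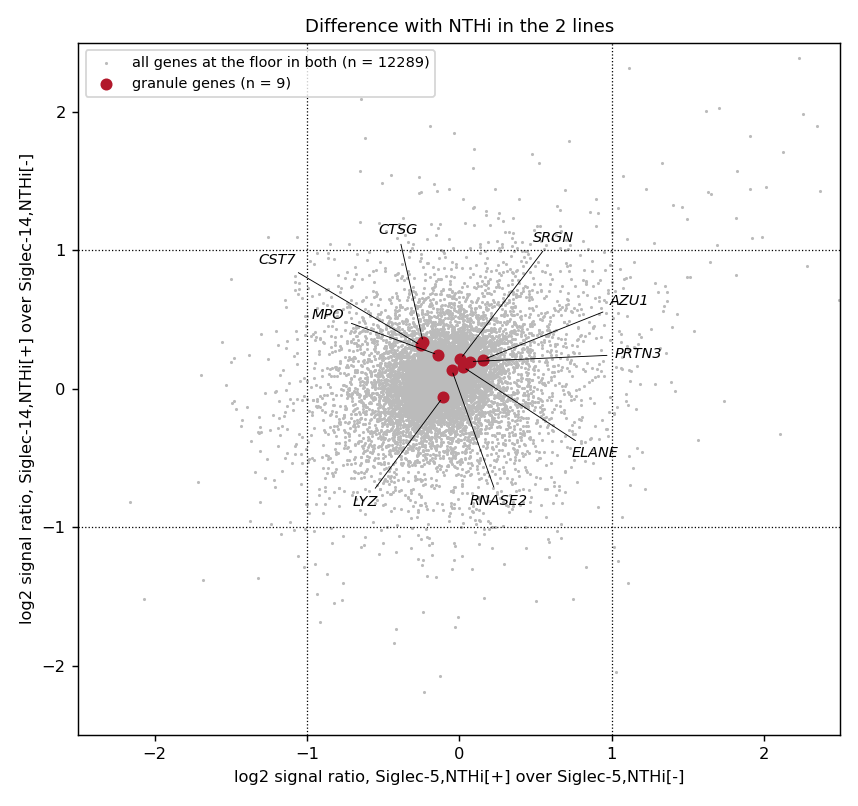
Log2 ratio of NTHi[+] over NTHi[-] in the Siglec-14 line and in the Siglec-5 line, for the granule genes and for 12289 genes as background (11 beyond the axes). No granule gene reaches 2-fold in either line.

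A shared fit with limma treated line and NTHi as additive terms, its line term setting the 2 Siglec-14 arrays against the 2 Siglec-5 arrays. Its error comes from departures from additivity pooled across genes of like signal, with 1 residual degree of freedom, and not from replicates, so the p-values measure that departure only. CTSG was lower in the Siglec-14 line by the line term (log2 -1.42, SE 0.15, limma adjusted p = 1.83e-18). MPO was lower as well (log2 -0.87, SE 0.15, limma adjusted p = 1.11e-06), with its other probe set at -0.65. Each SE here is the pooled value, in which the gene's own departure carries no weight. The log2 NTHi ratios of the lines differed by 0.57 for CTSG and 0.38 for MPO. These p-values therefore leave out the spread of CTSG and MPO themselves. Without the intensity trend the SE was 0.25 for CTSG and 0.22 for MPO. The line term called 4.95 percent of 13933 genes lower and 6.24 percent higher, and 2 of the 9 granule genes lower and 0 higher. As deposited the calls were 690 genes lower and 869 higher, and after median scaling 2203 lower and 1031 higher, so the split between the directions depends on the scaling. Without the intensity trend the fit called 0 genes, and the limma adjusted p was 0.300 for CTSG and 0.367 for MPO, although 1050 genes higher and 609 lower had an unadjusted p under 0.05.

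The line terms of the other granule genes did not pass. They were -0.35 for PRTN3 (limma adjusted p = 0.202), -0.22 for AZU1, -0.11 for RNASE2, -0.10 for ELANE, -0.09 for LYZ, 0.00 for SRGN and 0.77 for CST7, whose SE was 0.51. PRTN3 and AZU1 passed when the arrays were first scaled to a common median or trimmed mean. PRTN3 also passed after quantile normalization. Genes called lower under these were 2203 of 13927 (median), 1809 of 13939 (trimmed mean) and 1575 of 13926 (quantile). For the NTHi term, 0 of 9 passed in either direction (limma, all adjusted p = 0.9998), where 0.99 percent of genes passed higher and 0.294 percent lower, and 477 genes higher and 460 lower had an unadjusted p under 0.05. The terms ran between -0.24 for CST7 and 0.18 for AZU1.

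**Figure D4:**
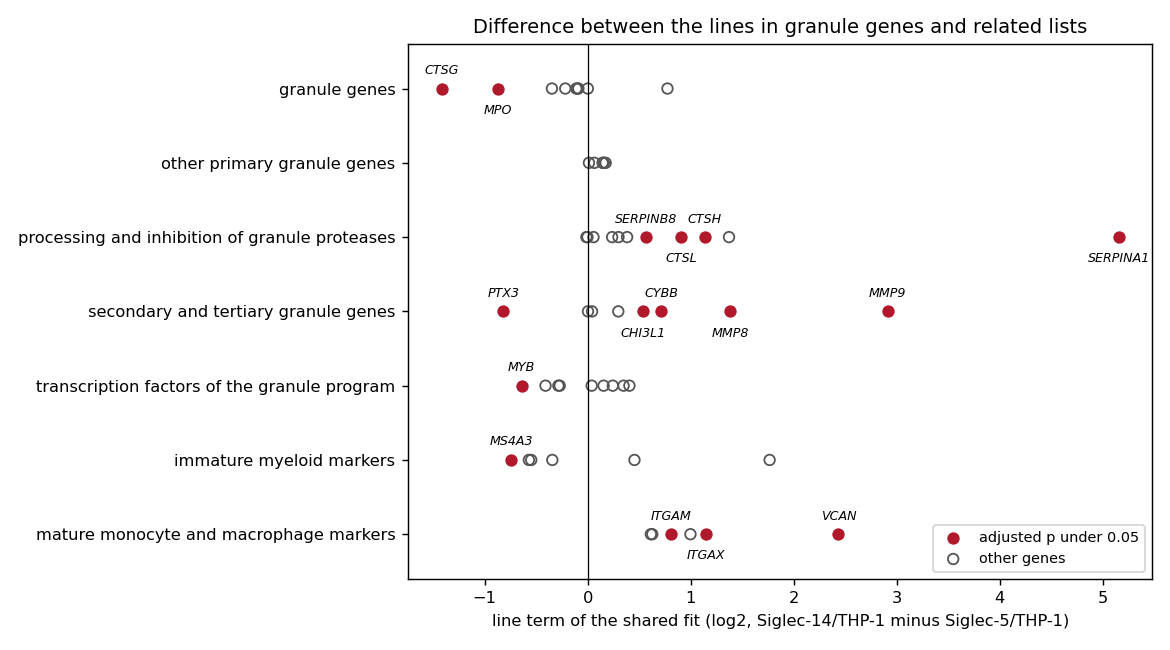
Line term (Siglec-14 over Siglec-5, log2) from the limma fit over the 4 arrays, for the granule genes and for related granule, protease, transcription factor and myeloid marker lists. Filled points had a limma adjusted p under 0.05, which no gene had without the intensity trend. CTSG at -1.42 and MPO at -0.87 lie apart from 0, and the terms of the other granule genes did not pass the test.

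Other genes of the granule pathway were taken from lists. MYB, GFI1, CEBPB, MS4A3, SERPINB8, CHI3L1, CYBB, PTX3, DEFA4, CTSC, CEBPA, NKG7, CD34, CD38, FLT3 and IGLL1 were named after their values were seen. Of 10 further primary granule genes, 6 had a probe set at the floor, and 0 were 2-fold different in any of the 4 comparisons or passed the fit. DEFA4, a defensin, read 189 and 179 in the Siglec-14 line with and without NTHi, against 160 and 208 in the Siglec-5 line.

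Of 12 genes that process or inhibit granule proteases, 11 were fitted, and 4 rose in the Siglec-14 line by the line term (CTSH, CTSL, SERPINA1 and SERPINB8), where 6.24 percent of all genes did, and 0 fell. CTSC, cathepsin C, which activates the serine proteases by removing a dipeptide, read 2702 and 2292 in the Siglec-14 line with and without NTHi, against 2567 and 2453 in the Siglec-5 line, with a line term of -0.01. SERPINA1, alpha-1 antitrypsin, the main inhibitor of elastase, read 177 and 84.6 in the Siglec-14 line with and without NTHi, against 3.99 and 2.95 in the Siglec-5 line, at least 11.0-fold higher with NTHi and at least 5.28-fold higher without. CTSH, a lysosomal cysteine protease, read 446 and 347 in the Siglec-14 line with and without NTHi, against 202 and 158 in the Siglec-5 line, 2.21-fold and 2.19-fold higher. CTSL, another lysosomal cysteine protease, read 148 and 122 in the Siglec-14 line, against 65.6 and 78.2 in the Siglec-5 line. By the 2-fold rule 4 of 11 were higher in the Siglec-14 line with NTHi (these 3 and SERPINB9, an inhibitor of granzyme B), against 4.36 percent of all genes, and 2 of 10 without it (CTSH and SERPINA1), against 3.19 percent. NTHi[+] was at least 2-fold over NTHi[-] for 2 of 11 in the Siglec-14 line (SERPINA1 and SERPINB9), against 1.17 percent.

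Of the 14 genes of the later, secondary and tertiary granules, 8 were fitted, and 4 rose in the Siglec-14 line (CHI3L1, CYBB, MMP8 and MMP9), where 6.24 percent of all genes did, and 1 fell (PTX3), where 4.95 percent did. MMP9, gelatinase B, read 2304 and 1282 in the Siglec-14 line with and without NTHi, against 268 and 194 in the Siglec-5 line, 8.59-fold and 6.59-fold higher. MMP8, a neutrophil collagenase, read 36.3 and 32.7 in the Siglec-14 line with and without NTHi, against 12.7 and 13.7, both below the floor, in the Siglec-5 line. LCN2, lipocalin 2, which binds bacterial siderophores, read 46.2 and 7.11 in the Siglec-14 line with and without NTHi, against 15.1 and 14.4 in the Siglec-5 line, with 3 of the 4 signals below the floor. By the NTHi term 2 of the 8 rose, MMP9 and PTX3, where 0.99 percent of all genes did.

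Of the 10 transcription factors of the granule program, 9 were fitted, and 1 was lower in the Siglec-14 line, where 4.95 percent of all genes were. MYB, which keeps myeloid precursors immature, read 2708 in Siglec-14,NTHi[+], 3055 in Siglec-14,NTHi[-], 4111 in Siglec-5,NTHi[+] and 4884 in Siglec-5,NTHi[-] (line term log2 -0.64, limma adjusted p = 0.00251). GFI1, a repressor needed for granulocyte development, had a line term of -0.41, which did not pass (limma adjusted p = 0.0756). CEBPB ran the other way at 0.41, which did not pass either (limma adjusted p = 0.0748). The median line term of the 9 factors was 0.04. CEBPA, the master factor of the granulocyte program, read 1292 and 1271 in the Siglec-14 line with and without NTHi, against 1221 and 1274 in the Siglec-5 line, and did not differ by 2-fold in any comparison. MYB passed in 7 of 8 settings of the fit, all but the one without the intensity trend. CTSG, MPO, MS4A3, MMP9, SERPINA1, CTSH, CTSL, ITGAM and VCAN did so too, while MMP8 passed in 4 of 7, ITGAX in 3 of 7 and CHI3L1 in 6 of 8.

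Marker lists of immature and mature myeloid cells had summed signals that differed between the lines. Of 10 immature myeloid markers, 9 had a probe set and 6 reached the floor, and their summed signal was 2910 and 2892 in the Siglec-14 line with and without NTHi, against 4470 and 4922 in the Siglec-5 line. Most of that sum is MS4A3, a marker of granulocyte and monocyte precursors, which read 2590 and 2524 in the Siglec-14 line, against 4093 and 4485 in the Siglec-5 line (line term log2 -0.74, limma adjusted p = 0.000187), and KIT, SPINK2 and PROM1 were below the floor on all arrays. This was 1 of 6 markers that passed as lower by the line term, where 4.95 percent of all genes did, and none of the others passed. FLT3 (-0.34), CLEC12A (-0.55) and IGLL1 (-0.57, from signals mostly below the floor) ran the same way. CD34 (1.77, from signals mostly below the floor) and CD38 (0.45) ran the other way. The median line term of the 6 markers was -0.445. CLEC12A, a lectin receptor of myeloid cells, read 21.1 and 41.1 in the Siglec-14 line with and without NTHi, against 29.3 and 63.3 in the Siglec-5 line. The 14 mature monocyte and macrophage markers, 11 with a probe set and 6 at the floor, summed to 702 and 678 in the Siglec-14 line, against 335 and 359 in the Siglec-5 line, with 3 of 6 higher by the line term (ITGAM, ITGAX and VCAN), where 6.24 percent of all genes were, and CD14, FCGR1A, MRC1, MSR1 and FCN1 below the floor on all arrays. VCAN, the proteoglycan versican, read 131 and 190 in the Siglec-14 line with and without NTHi, against 23.0 and 37.0 in the Siglec-5 line. TYROBP, the adaptor DAP12, from the monocytic line markers, read 376 and 329 in the Siglec-14 line, against 186 and 205 in the Siglec-5 line. The part of these markers in the lower CTSG and MPO signals was not tested.

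Of the markers of other cells, some were below the floor and some were well above it. Of 4 eosinophil markers, PRG2 read 342 and 405 in the Siglec-14 line with and without NTHi, against 354 and 400 in the Siglec-5 line. EPX read 35.8 and 30.4 in the Siglec-14 line, against 35.7 and 48.8 in the Siglec-5 line. CLC and SIGLEC8 did not reach the floor, and the 4 markers had sums between 387 and 463. Of 6 NK and cytotoxic T cell markers 4 reached it, and their sum was 820 and 706 in the Siglec-14 line with and without NTHi, against 321 and 303 in the Siglec-5 line, with CD3E and KLRD1 below the floor. GNLY, granulysin, read 410 and 360 in the Siglec-14 line, against 2.14 and 3.71 in the Siglec-5 line, and NKG7 read 363 and 292 in the Siglec-14 line, against 247 and 240 in the Siglec-5 line. B cell and erythroid lists had 1 gene each at the floor and the mast cell list 0, and the part of these genes in the granule values was not tested.

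Among 13934 genes, those whose 4 signals were most like CTSG's in shape were SERPINB10, CSPG5, F12, HPDL and CCZ1, by the root mean square difference of log2 values, raised to the floor and centred on each gene's mean (0.075 to 0.122). F12 in Siglec-14,NTHi[-] and CCZ1 on both Siglec-14 arrays were below the floor, so their likeness rests on it. SERPINB10, a serine protease inhibitor of blood cells, read 63.2 and 48.8 in the Siglec-14 line with and without NTHi, against 127 and 143 in the Siglec-5 line. This is a description over 4 arrays, and 4 points shared by all genes leave many patterns alike.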

How the data were processed

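Total RNA (250 ng) of each of the 4 cultures was labeled and hybridized by the authors to a U133 Plus 2.0 array. The deposited values are signal intensities, 1 per probe set, made with GCOS per the labels. The methods describe standardization on the cumulative signal of all probes, and the sums differ between arrays. Groups come from the sample labels. Probe sets were named with the platform annotation: 41097 had 1 gene, 1801 several and 11777 none. The floor was the median signal (16.02), and a 2-fold change was counted. The fit used limma 3.58.1 in R 4.3.3 on log2 signals, not raised to the floor, of 31981 probe sets that reached it on at least 1 array, with line and NTHi as terms, eBayes with a trend and Benjamini-Hochberg adjustment at 0.05. Prior degrees of freedom were infinite. The scripts were tested on simulated data. Named companion genes are up to 4 per list at least 2-fold different in a comparison, and the report says which others were named after their values were seen. The members and lists were chosen with earlier results of these data known. Python 3.11.15, numpy 2.4.6, pandas 2.3.3 and matplotlib 3.10.9 were used for the rest. Scalings, floors, thresholds, probe set choices and fits were varied.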

Additional observations from a re-analysis of the deposited data

Results flagged for a closer look

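For 4 granule genes the log2 NTHi ratio had opposite signs in the lines, above 0 in the Siglec-14 line and below 0 in the Siglec-5 line. The difference was not tested, since each ratio comes from 1 array per condition. The difference between the lines (Siglec-14 minus Siglec-5) was 0.57 for CTSG, 0.38 for MPO, 0.56 for CST7 (with the signal below the floor raised to it) and 0.19 for RNASE2. CTSG, MPO and CST7 kept opposite signs after median scaling, trimmed mean scaling and quantile normalization, and RNASE2 had the same sign in both lines under each of these. The other MPO probe set had ratios below 1 in both lines, with log2 values of -0.05 in the Siglec-14 line and -0.36 in the Siglec-5 line. For CTSG the difference was 0.49, 0.38 and 0.39 under the 3 scalings, in that order.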

How the results depend on the processing

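Between the lines, CTSG was 2.15- to 2.36-fold lower with NTHi and 2.92- to 3.32-fold lower without, over 12 settings, and MPO 1.41- to 1.73-fold and 1.75- to 2.14-fold lower. The floors and thresholds could not change the ratio of either gene, whose signals all lay above each floor. CTSG has 1 probe set. Its ratio could therefore change only with the scaling, or with a constant of 16 added to each signal in place of the floor. The count of granule genes at least 2-fold lower without NTHi was 1 (CTSG) with trimmed mean scaling, quantile normalization, a 3-fold threshold, the median over probe sets or the dimmest probe set. The shares of all genes were 0.933, 1.25, 0.113, 1.09 and 1.71 percent, in that order. With NTHi the lower count was 0 at 3-fold and 2 at 1.5-fold, and the higher count was 1 (CST7) with the floor at the 25th percentile, no floor or a 1.5-fold threshold. In the fit the line term called 4 lower (CTSG, MPO, PRTN3 and AZU1) with median or trimmed mean scaling. Of all genes it called 2203 of 13927 lower with median scaling and 1809 of 13939 with trimmed mean scaling. Without the trend the line term called 0 granule genes, and 0 of 13933 genes. The NTHi term called 2 higher (AZU1 and SRGN) with trimmed mean scaling, where it called 515 of 13939 genes higher. The cause was not tested, except that the thresholds and floors act by their own construction. The count with both Siglec-14 arrays lower than both Siglec-5 arrays, a measure added after the data were seen, was 7 as deposited. It was 4 with trimmed mean scaling, where 24.9 percent of all genes were lower in this way. Another 107 recomputed counts of granule genes equalled the main count or stayed within 1.5 times of it. Many of these were counts of 0 that stayed 0, which says little about stability. Among the 107 were 3 lower in the line term (CTSG, MPO and PRTN3) with quantile normalization, where 1575 of 13926 genes were called lower.

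The line term called 869 genes higher and 690 lower as deposited, 1031 and 2203 with median scaling, 1881 and 1809 with trimmed mean scaling, and 1539 and 1575 with quantile normalization. Scaling moved the median of all genes by -0.11 (median scaling, lines with NTHi), by 0.14 (trimmed mean, lines without NTHi) and by 0.11 (trimmed mean and quantile, NTHi in the Siglec-5 line), so smaller shifts than these have no settled direction. The additive fit compares NTHi within the lines, and no pairing by replicate was possible because each group holds 1 array. The number of arrays limits the precision.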
